A study of Lepidium sativum with 30 samples.

Results

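The late rise held back by Myrigalone A (MyA) is a set of 69 contigs of germinating garden cress (Lepidium sativum) seed, out of 48306 assembled contigs with read counts. The set was chosen from measured levels, given as CPM, the count of a contig per 1000000 counts of its library. A contig entered when its mean in control seed at 12 h was at least 10 CPM, when it stood at least 4 times higher than in control seed at 6 h, and when its mean in MyA-treated seed at 12 h was below 0.8 of the control mean, with 0.5 CPM added to each mean before division. The first 2 conditions held for 396 contigs, called the late-rise contigs here, and the third left 69 of them (17.4%). The rule would have taken up to 100, so all that met it were taken. These ratios are therefore a description of the set and were not tested.

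Poly(A) RNA came from whole seeds, with embryo, endosperm and seed coat together, in 6 groups of 5 libraries: dry seed (DS), seed imbibed for 6 h or 12 h without MyA (C6, C12), and seed imbibed with MyA for 6 h, 12 h or 18 h (M6, M12, M18). Per the study's methods the seeds were of the line FR14, were kept in continuous light, and the control solution held the solvent. The fifth M18 library (M18-5), left out in the study, was left out here too and entered only an alternative, so that 29 libraries were used. There was no control at 18 h, and in the study the endosperm began to rupture at 12 h in control seed and at 18 h with MyA. M18 was set against C12 to ask whether the treated seed, given more time, reached the control level of these transcripts. Total counts ran from 20218374 to 33609057 per library. In whole seeds a change in the number of cells of 1 type cannot be told apart from a change in RNA per cell.

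A dry seed holds stored transcripts, many of which are degraded during the first hours of water uptake, while the embryo begins transcription of its own. Cell expansion, cell wall loosening, transport and the use of reserves come later and precede the protrusion of the radicle through the endosperm and the seed coat. MyA is a flavonoid-related phytotoxin from fruits of Myrica gale that delays germination of cress.

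Of the 69 contigs, 5 carry a gene name or an Arabidopsis match in the study's tables that could be read here. The deposited table does not pair contigs with names, and 64 contigs are left without one. UMAMIT25 belongs to a family of amino acid transporters. BOR2 is in Arabidopsis a borate exporter, and boron cross-links pectin in the cell wall. DMC1 is known as a recombinase of meiosis. AT2G34080 belongs to the cysteine proteinases, a family of protein-degrading enzymes. AT4G22460 belongs to the family of bifunctional inhibitors and lipid-transfer proteins, small secreted proteins, some of which carry lipids to the cuticle. The first 4 of these contigs were listed by the study as lower with MyA at 12 h, and AT4G22460 as higher at 18 h, on these same libraries, so that their direction is not independent evidence. Reads shared between close relatives, such as those of the BOR genes, could have been divided between contigs.

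The ratio M12/C12 ran from 0.476 for UMAMIT25 to 0.798, with a median of 0.754, and most of the set lay close to its limit. The ratio was within 0.02 of the limit for 21 members, and the nearest contigs outside stood at 0.8001 and 0.8009. Another 27 late-rise contigs lay within 0.02 above the limit. The median ratio of the 327 late-rise contigs outside the set was 0.913. All 5 M12 libraries lay below the lowest C12 library for 10 of the 69 members, among them UMAMIT25, BOR2 and DMC1, so that for the other 59 the libraries overlapped. The same held for 1 of the 327 other late-rise contigs and for 275 of the 22155 contigs with at least 5 CPM in at least 4 libraries. A low M12/C12 ratio was a condition of the rule, so the count for members follows in part from the choice.

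How far such contigs are held back at 12 h was then read between libraries that took no part in the choice. For each of the 25 pairs of 1 C12 and 1 M12 library, both were left out of the rule, the contigs were chosen with the others, and the ratio of the left-out M12 to the left-out C12 library was taken. Its median over the contigs chosen ran from 0.688 to 1.36, with 0.895 in the middle. It was below 0.8 in 9 of 25 pairs, between 0.8 and 1 in 11 and above 1 in 5. The 9 pairs below 0.8 were those of C12-1, C12-2 and C12-3 with M12-3, M12-4 and M12-5. With C12-4 left out the median ran from 0.928 to 1.36, and with C12-5 from 0.922 to 1.32. With M12-1 left out it ran from 0.877 to 1.36, and with M12-2 from 0.831 to 1.23. The pairs share libraries and are not independent. Over contigs chosen without the pair, the median thus fell below the limit of 0.8 only between 3 control and 3 MyA libraries. It did not for C12-4 or C12-5 with any M12 library. With C12-4 left out 85 to 185 contigs met the rule, and with C12-5 left out 80 to 190, of which at most 100 were taken. The contigs were chosen anew for each pair and are not the set itself. For the set, every C12 and M12 library took part in the choice, so this reading cannot decide how far its members are held back. The reading by left-out pairs was added after the values had been seen.

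**Figure D1:**
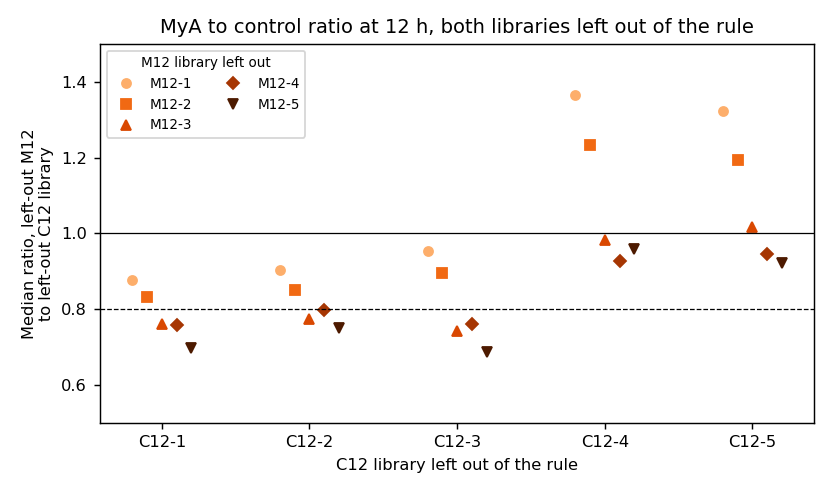
Median ratio of the left-out M12 to the left-out C12 library (y axis) over the contigs chosen without both, by the C12 library left out (x axis) and the M12 library left out (symbols). The solid line marks equal levels and the dashed line the limit of 0.8; 9 of 25 pairs lie below the limit, all with C12-1, C12-2 or C12-3, and 5 lie above 1, all with C12-4 or C12-5.

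The libraries that stand apart did so in the wider late rise as well. Relative to the C12 mean, the median member stood at 1.15, 1.06 and 1.07 in C12-1, C12-2 and C12-3 and at 0.831 and 0.849 in C12-4 and C12-5. For the 327 other late-rise contigs the medians were 1.09, 1.06, 1.08, 0.895 and 0.846 in the same order. In M12-1 the median member was at 0.878 and the median of the other contigs at 1.08, while M12-5 had 0.673 and 0.818. In M12-2, M12-3 and M12-4 the median member was at 0.789, 0.713 and 0.672. For the 69 members, M12-2 to M12-5 thus lay below C12-4 and C12-5 in this median and M12-1 above them, though all these libraries took part in the choice. The choice of scaling also touched the set. With CPM scaled by TMM factors (edgeR's trimmed mean of M-values, which corrects for differences in composition), 35 contigs met the rule, all of them among the 69. The part of library and composition differences in the ratio at 12 h was not tested.

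The summed CPM of the 69 contigs shows the course of the set. The sum ran from 613 to 1098 in DS (median 777), from 634 to 790 in C6 (median 676) and from 656 to 802 in M6 (median 716). In C12 the libraries gave 4742, 4295, 4331, 3672 and 4146. In M12 they gave 3682, 3389, 2967, 3108 and 2852, so that the highest M12 library was just above the lowest C12 library. In M18 the sums were 5110, 4521, 4257 and 4983, and 3459 in M18-5. Between 6 h and 12 h the set thus rose in both treatments, and at 18 h 4 M18 libraries spanned a range that began inside that of C12 and ended above it. Sums weight the contigs with high counts, and C12 means ran from 10.01 to 948 CPM over the members, 8 of them above 100 CPM and 31 below 20 CPM.

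**Figure D2:**
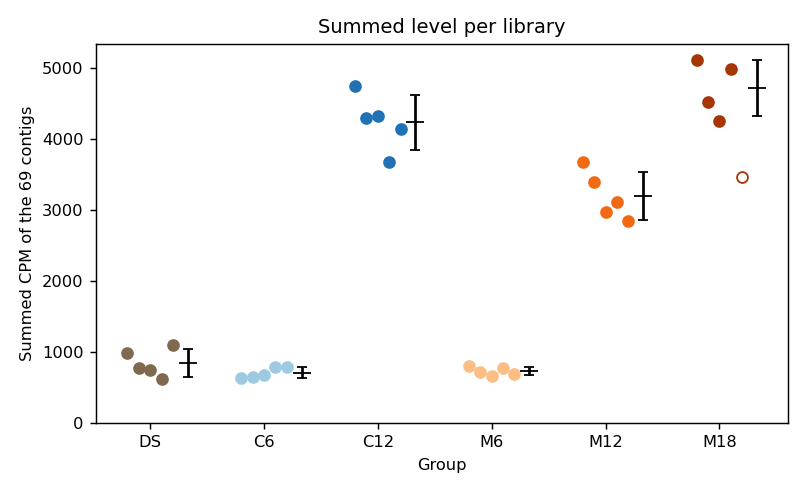
Summed CPM of the 69 contigs (y axis) in each library, by group (x axis); filled points are libraries used, the open point is M18-5, and the bar beside each group is the mean with SD of the libraries used (4 in M18, 5 elsewhere). The M12 libraries reach from 2852 to 3682, the C12 libraries from 3672 to 4742 and the 4 M18 libraries from 4257 to 5110.

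Seed maturation markers were looked at beside this. The summed CPM of TIP3;1, ABI3, ABI5 and LEA18, genes known from seed maturation, ran from 74.1 to 224 in DS, from 14.9 to 22.1 in C12, from 20.3 to 42.9 in M12 and from 6.55 to 21.4 in M18, and none of the 4 was at 0. The seed samples thus held these markers. LEA18 and TIP3;1 had higher medians in M12 (16.3 and 4.79 CPM) than in C12 (6.37 and 1.37 CPM), whereas ABI3 and ABI5 had lower ones (7.49 and 1.67 CPM in M12, 11.2 and 1.87 CPM in C12). The M12 and C12 libraries overlapped for all 4 markers. For ABI5 they ran from 1.43 to 2.64 CPM in M12 and from 1.31 to 2.05 CPM in C12. ABI3 and ABI5 were also lower in DS, at medians of 2.40 and 1.73 CPM, than in C6, at 17.3 and 7.20 CPM. The part of these markers in the lower M12 level of the set was not tested.

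At 18 h most members had reached the control level of 12 h. The M18 mean was at or above the C12 mean for 46 of 69 members (66.7%), against 41.7% of the 22155 contigs tested and 284 of the 327 other late-rise contigs (86.9%). The ratio M18/C12 had a median of 1.20 over the members, quartiles of 0.891 and 1.56, and a range from 0.444 (BOR2) to 3.46 (AT4G22460). The median was 1.44 over the other late-rise contigs and 0.940 over all contigs tested. The C12 level entered the choice of the set, so that C12 enters both sides of this reading. All 4 M18 libraries were at or above the C12 mean for 35 members, none was for 13, and 1 to 3 of them were for 21. Taken library by library, 50, 46, 39 and 47 of 69 members were at or above the C12 mean in M18-1 to M18-4, and 11 in M18-5. These were 72.5%, 66.7%, 56.5%, 68.1% and 15.9% of the members. The shares were higher for the other late-rise contigs, at 89.3%, 85.6%, 81.0%, 84.4% and 30.9% in the same order. With TMM scaling 50 of the 69 reached it.

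The answer again moved with the control library used. With the rule run on the other 4 C12 libraries and the M18 mean set against the left-out library, which took no part in the choice, 20 of 41 contigs reached C12-1 (48.8%), 37 of 55 reached C12-2 (67.3%) and 35 of 54 reached C12-3 (64.8%). Against C12-4 and C12-5, 85.0% and 84.0% of the 100 contigs taken did.

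In terms of the rise itself, taken as the share of the step from the C6 mean to the C12 mean, M12 had covered a median of 70.2% over the members, from 34.1% to 78.4%, as the rule requires. M18 had covered a median of 125%, from 35.7% to 368%. Among the 23 members whose M18 mean stayed below C12 the median was 75.1% and the highest 98.4%, and 8 of the 23 had covered 80% or more. The members short of the control level at 18 h thus ranged from nearly there to below their own M12 level, as for BOR2.

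**Figure D3:**
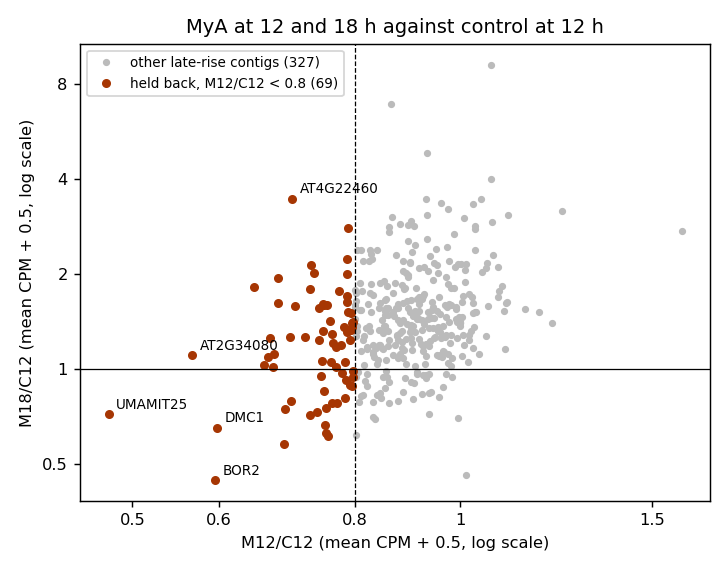
Each point is 1 of the 396 late-rise contigs, with M12/C12 on the x axis and M18/C12 on the y axis, both ratios of mean CPM plus 0.5 on log scales; the 69 members are brown and the other 327 grey. The dashed line is the limit of 0.8 and the solid line marks M18 equal to C12, which 46 members and 284 other contigs reach; the 5 contigs with names are labelled.

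edgeR's quasi-likelihood test was run over all 22155 contigs with at least 5 CPM in at least 4 libraries, which all 69 members passed, and p was adjusted by the method of Benjamini and Hochberg. A contig was called when it changed over 2-fold with an adjusted p under 0.05. For M18 against C12, 7 members were called higher (10.1%; 2.43% of all contigs tested) and 1 lower (1.45%; 0.961% of all contigs tested). C12 took part in the choice of the set. These calls, and the p-values for M18 against C12 given below for single members, therefore describe the set and are not an independent test. Among the 327 other late-rise contigs 69 were higher (21.1%) and 1 lower. The median log2 fold change was 0.34 over the members, 0.60 over the other late-rise contigs and -0.02 over all contigs tested. Without the fold threshold 24 members were higher (34.8%; 13.3% of all contigs tested) and 7 lower (10.1%; 15.3% of all contigs tested). Without scaling factors 6 members were higher and 1 lower, and the calls over all contigs were 471 higher and 293 lower in place of 539 and 213. The M18 and C12 libraries did not overlap for 26 members, 21 with M18 above (30.4%; 9.66% of all contigs tested) and 5 with M18 below (7.25%; 15.4% of all contigs tested). The members called higher fell from 7 to 4 without M18-1, and TC_49163 was then called lower beside BOR2. Over all contigs tested 448 were then called higher and 115 lower. The part of imbibition time in this comparison cannot be told apart from that of MyA.

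**Figure D4:**
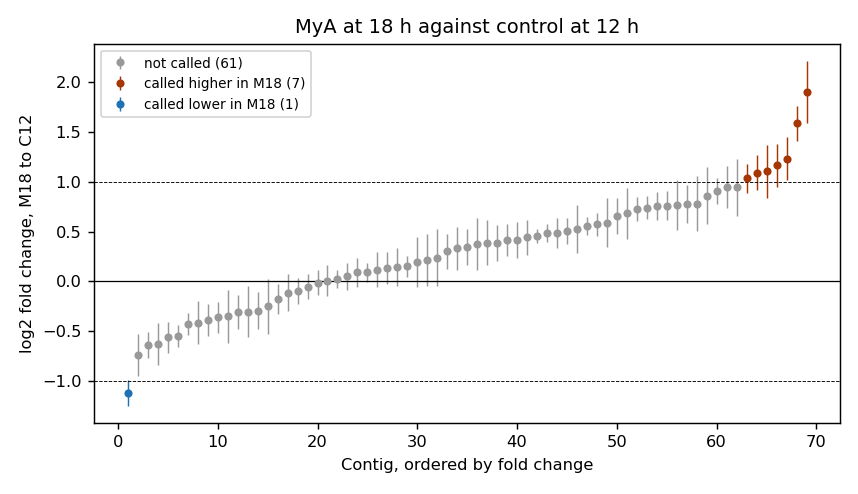
The log2 fold change of M18 to C12 with its standard error from edgeR (y axis) for the 69 members, ordered from low to high (x axis); dashed lines mark 2-fold changes. BOR2, at the left end, is called lower and 7 contigs, with AT4G22460 at the right end, are called higher.

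The 2 transporters among the named members, UMAMIT25 and BOR2, had M18 means below C12. UMAMIT25 stood at 15.2, 13.6, 15.2, 10.9 and 14.7 CPM in C12, at 5.35, 5.16, 6.03, 7.52 and 7.75 CPM in M12 and at 9.77, 10.1, 9.67 and 9.88 CPM in M18. The M18 libraries lay together between the M12 and the C12 libraries, with no overlap on either side. With means of 13.9 ± 1.80 (SD, n = 5) in C12 and 9.86 ± 0.192 (SD, n = 4) in M18, the log2 fold change of M18 to C12 was -0.43 ± 0.108 (SE; edgeR adjusted p = 0.0164), short of the 2-fold limit. UMAMIT25 had 64.6% of its control rise at 18 h against 34.1% at 12 h. In the study's RT-qPCR, by contrast, its ratio to the 12 h control was no higher with MyA at 18 h than at 12 h. In M18-5 it was at 5.10 CPM.

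BOR2 behaved otherwise, for its level at 18 h was no higher than at 12 h. It stood at 60.0, 52.7, 57.0, 59.5 and 59.4 CPM in C12, at 37.0, 37.6, 39.7, 19.7 and 36.8 CPM in M12, and at 23.9, 31.4, 25.9 and 20.2 CPM in M18. The C12 libraries were close together and above those of M12 and M18, and M12 and M18 overlapped through M12-4. The mean went from 57.7 ± 3.05 CPM (SD, n = 5) in C12 to 34.2 ± 8.14 CPM in M12 (SD, n = 5) and 25.3 ± 4.69 CPM in M18 (SD, n = 4). BOR2 was the member called lower in M18 than in C12 (log2 fold change -1.12 ± 0.129, edgeR adjusted p = 0.000528), and it kept that call in each of 18 alternatives, with log2 fold changes from -1.25 to -1.02. It had covered 53.2% of the control rise in M12 and 35.7% in M18.

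DMC1 stayed near its M12 level. It stood at 29.2, 32.2, 30.8, 24.6 and 25.1 CPM in C12, at 16.1, 12.6, 20.9, 18.0 and 16.3 CPM in M12 and at 22.9, 20.1, 14.4 and 15.7 CPM in M18. Both MyA groups lay below the lowest C12 library and overlapped each other. Its mean was 28.4 ± 3.39 CPM in C12 (SD, n = 5) and 18.28 ± 3.92 CPM in M18 (SD, n = 4), a log2 difference of -0.56 ± 0.156 (edgeR adjusted p = 0.0239) that did not pass the 2-fold limit.

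The cysteine proteinase contig AT2G34080 had an M18 mean above that of C12. It was near absent early, with 0.129 ± 0.0866 CPM in DS (SD, n = 5), 0.378 ± 0.0451 CPM in C6 and 0.259 ± 0.105 CPM in M6. It stood at 17.1, 10.8, 16.0, 10.3 and 6.57 CPM in C12, at 7.22, 5.76, 5.81, 8.75 and 5.93 CPM in M12 and at 14.7, 12.9, 16.3 and 9.97 CPM in M18. The C12 libraries were spread widely and C12-5 lay within the M12 range, whereas the 4 M18 libraries lay above all M12 libraries. M18 differed from C12 by 0.21 ± 0.262 on the log2 scale (edgeR adjusted p = 0.542). In M18-5 the contig was at 3.96 CPM.

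The lipid-transfer family contig AT4G22460 went beyond the control. It stood at 23.2, 15.8, 15.7, 10.2 and 10.3 CPM in C12, at 13.3, 14.0, 7.60, 10.8 and 6.33 CPM in M12 and at 86.9, 42.2, 36.9 and 47.0 CPM in M18. The C12 and M12 libraries overlapped and the M18 libraries, with M18-1 the highest, lay above both. Its log2 fold change was 1.90 ± 0.310 against C12 (edgeR adjusted p = 0.0026). Without M18-1 the value against C12 was 1.54. M18-5 had 35.6 CPM, close to the lowest of the other M18 libraries.

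Among the 64 members without a name, TC_66275 and TC_46053 had the largest rise of M18 over C12. TC_66275 stood at 14.6, 8.57, 13.1, 12.301 and 9.01 CPM in C12, at 8.87, 4.90, 6.91, 11.8 and 12.47 CPM in M12 and at 34.3, 32.1, 28.6 and 37.0 CPM in M18, with M18 apart from the others. Its log2 fold change of M18 to C12 was 1.59 ± 0.172 (edgeR adjusted p = 0.000405). TC_46053 stood at 104, 64.1, 91.4, 57.6 and 48.7 CPM in C12, at 68.7, 51.2, 52.0, 60.4 and 55.2 CPM in M12 and at 194, 134, 173 and 154 CPM in M18. Here C12 and M12 overlapped, M18 lay above both, and M18-5 had 200 CPM, the highest value of this contig. Its log2 fold change of M18 to C12 was 1.23 ± 0.216 (edgeR adjusted p = 0.00351).

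At the other end were TC_49163 and TC_66120, the members without a name with the lowest M18 to C12 fold changes. TC_49163 stood at 28.3, 28.5, 39.2, 29.8 and 24.8 CPM in C12, at 16.0, 17.4, 24.7, 28.6 and 16.1 CPM in M12 and at 25.3, 15.8, 14.1 and 13.3 CPM in M18, with all 3 groups overlapping. Its log2 fold change of M18 to C12 was -0.74 ± 0.211 (edgeR adjusted p = 0.0262). TC_66120 was a stored transcript, at 541 ± 156 CPM (SD, n = 5) in DS, that had fallen to 123 ± 29.4 CPM in C6 and 107 ± 8.54 CPM in M6. It then stood at 444, 577, 454, 473 and 526 CPM in C12, at 517, 437, 375, 362 and 181 CPM in M12 and at 258, 381, 281 and 291 CPM in M18. The M18 libraries lay below the C12 libraries and within the wide range of M12 (log2 fold change of M18 to C12 -0.64 ± 0.128, edgeR adjusted p = 0.00607). Neither contig passed the 2-fold limit.

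**Figure D5:**
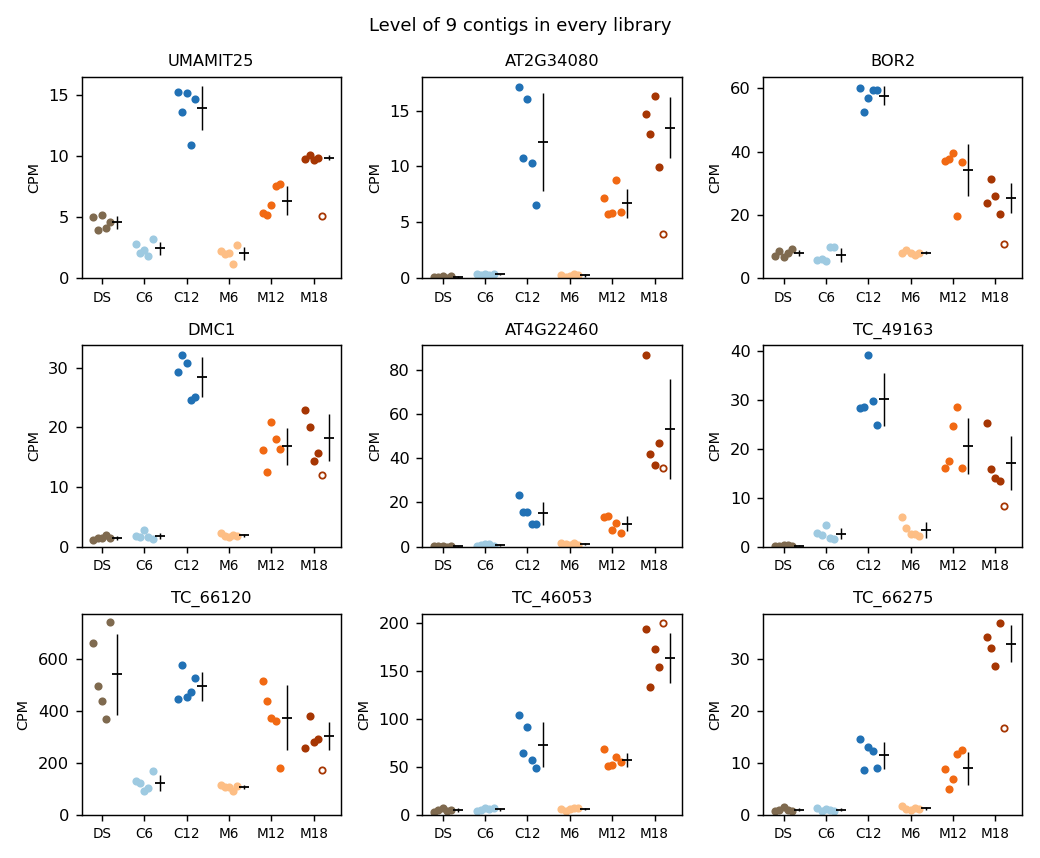
CPM (y axis, from 0 in each panel) of the 5 named members and 4 members without a name in every library, by group (x axis); filled points are libraries used, open points M18-5, and bars the mean with SD of the libraries used. M18 lies below C12 for UMAMIT25, BOR2, DMC1 and TC_66120 and above C12 for AT4G22460, TC_66275 and TC_46053, with no overlap of libraries.

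The whole set rose with MyA between 6 h and 18 h. M18 against M6 used libraries that took no part in the rule. The members were, however, chosen for a rise after 6 h in control seed, and M6 lay close to C6. The direction thus follows in part from the choice and is not independent evidence. All 69 members were called higher (100%; 16.1% of all contigs tested) and none lower, with 0 below at an unadjusted p of 0.05 by edgeR and by DESeq2 (20.0% of all contigs tested were called lower). The log2 fold changes ran from 1.51 for TC_66120 to 9.08, with a median of 3.05, against 0.04 over all contigs tested. Of the other late-rise contigs 326 of 327 were called higher, with a median of 3.10. BOR2, although below C12, had risen by 1.66 ± 0.132 on the log2 scale (edgeR adjusted p = 1.31e-06), UMAMIT25 by 2.27 ± 0.209 (edgeR adjusted p = 3.46e-06), DMC1 by 3.30 ± 0.186 (edgeR adjusted p = 1.84e-07), AT4G22460 by 5.45 ± 0.339 (edgeR adjusted p = 3.15e-07) and AT2G34080 by 5.68 ± 0.279 (edgeR adjusted p = 9.3e-08).

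M18 against M12 is given as a description, since members were chosen for a low M12 mean and higher M18 levels follow in part from that choice. By the same limits 19 members were called higher (27.5%; 1.97% of all contigs tested) and 0 lower (0.357% of all contigs tested), with 0 lower at an unadjusted p of 0.05 and 0 by DESeq2. The median log2 fold change was 0.77, from -0.38 for BOR2 to 2.41 for AT4G22460, and it was above 0 for 64 members. Of the other late-rise contigs 88 of 327 were called higher (26.9%), with a median of 0.69. With M18-5 included 12 members were called higher, and 382 of all contigs tested. The M18 mean was below the M12 mean in CPM for 8 of the 69 members (11.6%) and for 23 of the 327 other late-rise contigs (7.03%). It was below for 12833 of the 22155 contigs tested (57.9%).

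Before the late rise the members differed in their history, which the rule did not use. In dry seed 37 of the 69 (53.6%) had a mean below 1 CPM, compared with 45.3% of the other late-rise contigs and 7.60% of all contigs tested, while 4 members had more than 10 CPM. For M6 against DS, a comparison of imbibition with MyA that used no library of the rule, 37 members were called higher (53.6%; 26.8% of all contigs tested) and 6 lower (8.70%; 23.3% of all contigs tested). In the other late-rise contigs the shares were 53.5% and 10.7%. The median log2 fold change was 1.09 over the members and 0.06 over all contigs tested. Without scaling factors the median of all contigs moved to 0.57 and that of the members to 1.58, with 43 members called higher and 4 lower, so that the members stood about as far above the median contig under both scalings. Over all contigs the calls were then 8527 higher and 3417 lower in place of 5944 and 5172.

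The named members followed different courses in these hours. UMAMIT25 fell from 4.58 ± 0.538 CPM in DS (SD, n = 5) to 2.04 ± 0.545 CPM in M6 (log2 fold change -1.68 ± 0.201, edgeR adjusted p = 6.53e-06), and TC_66120 fell by 2.84 on the log2 scale (edgeR adjusted p = 1.43e-08). AT4G22460 rose by 3.39 ± 0.491 on the log2 scale (edgeR adjusted p = 3.31e-05) and TC_49163 by 4.04 ± 0.492 (edgeR adjusted p = 7.58e-06), both from levels near 0.1 CPM. BOR2 (log2 fold change -0.50, below 2-fold), DMC1 (-0.14), AT2G34080 (0.45), TC_66275 (-0.12) and TC_46053 (-0.21) were not called, and of these BOR2, DMC1, TC_66275 and TC_46053 changed sign without scaling factors. Of the 37 members already higher in M6, 28 reached the C12 mean in M18, of the 6 that had fallen 3 did, and of the other 26, 15 did. The same split was not made for the other late-rise contigs or for all contigs tested. These counts therefore describe the members only, and a link between the early course and the level at 18 h was not tested.

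At 6 h the treatments were close. The ratio M6/C6 had a median of 1.05 over the members, from 0.851 to 1.67, with 51 of 69 above 1 (73.9%). It was above 1 for 73.1% of the other late-rise contigs and 52.9% of all contigs tested. It had a median of 1.11 over the other late-rise contigs and 1.01 over all contigs tested. C6 entered the rule, so that this was not tested. The lowest member, at 0.851, was thus above the limit of 0.8 that the rule set at 12 h.

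The gene lists drawn from the study's annotation cover few of the members. The annotation sheet at hand was shortened, and most of the listed genes are ones that the study picked from the same libraries for their response to MyA. Of 44 transporters, other than those of auxin, 4 were late-rise contigs and 2 of them, UMAMIT25 and BOR2, were members. The other 2, the aquaporins PIP1;3 and PIP2;8, stood at 0.886 and 0.932 in M12/C12 and at 2.04 and 3.06 in M18/C12. Of 13 contigs for cuticle and lipid transfer 1 was a late-rise contig, the member AT4G22460. The lists of 30 cell wall contigs, 32 contigs of auxin transport and signalling and 15 of ascorbate, glutathione and reactive oxygen enzymes had 1 late-rise contig each and no member: ELP, SAUR27 and AO, with M18/C12 of 6.90, 2.10 and 2.31. None of 13 histone contigs, 2 gibberellin synthesis contigs or 4 seed markers was a late-rise contig. In all, 17 late-rise contigs had a name or a match, and 14 of them reached the C12 mean in M18; the 3 that did not were UMAMIT25, BOR2 and DMC1, which come from the study's list of contigs lower at 12 h.

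For M18 against C12 the lists as wholes gave the following calls, whether or not their contigs belong to the late rise. Of the tested contigs, 11 of 13 for the cell wall, 6 of 6 for cuticle and lipid transfer, 9 of 10 for ascorbate, glutathione and reactive oxygen enzymes and 11 of 11 histones were called higher, and 1 cell wall contig was lower. Of 30 other transporters 16 were higher and 8 lower, and of 26 auxin contigs 8 were higher and 2 lower. The 2 gibberellin synthesis contigs were not called, and 2 of 4 seed markers were lower. The median log2 fold changes were 2.09, 2.19, 1.98, 2.07, 1.12, -0.01, -0.21 and -0.34 in that order, beside -0.02 over all contigs tested, of which 2.43% were called higher and 0.961% lower. Because the study chose most of these contigs on these libraries, the counts describe the lists and are not independent evidence of their direction.

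M18-5 stood apart from its group for the set. Its level was below the lowest of the other M18 libraries for 59 of the 69 members and above the highest for 5. In this library 1958 contigs stood at least 2 log2 units above the mean of the other 4 M18 libraries and held 23.5% of its counts, against 1.09% to 3.56% in those 4, 0.976% to 2.23% in C12 and 1.65% to 7.09% in M12. None of the 69 members belonged to these contigs. The 1958 contigs also entered the totals by which the M12 and C12 counts were divided. When they were taken out of the column totals, 47 contigs met the rule, 46 of them among the 69, and 31 of the 47 reached C12 in M18. The paper states that its contigs without a match in Arabidopsis or Brassica may include contamination from other species. Whether this holds for the 1958 contigs, or for members without a name, was not tested.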

How the data were processed

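The authors mapped reads with BWA to an assembly of their own and counted them per contig with HTSeq (versions not given in the sources used here). The deposited values are raw counts, not normalized, and 0 columns were left unassigned. CPM was each count divided by the column total of the library, times 1000000. Contigs were chosen by the rule given above, and the members, lists and tests were chosen with earlier results of these data known. Each comparison was fitted on the libraries of its 2 groups with edgeR 4.0.16 in R 4.3.3 (TMM factors, glmQLFit, glmQLFTest), after a filter of 5 CPM in 4 of 29 libraries, with Benjamini-Hochberg adjustment over 22155 contigs. SEs are the log2 fold change divided by the root of F. The alternatives were DESeq2 1.42.0, RLE factors, library size alone, no filter, a filter of 5 counts in 4 libraries, a single fit over 6 groups, the replicate number as a block, M18-5 included, no fold threshold and the omission of each library; for the rule, the omission of each library or of a C12 and an M12 library together, TMM-scaled CPM, no offset and totals without the contigs enriched in M18-5. The fits were tested on simulated data. Named contigs are the members that the study's tables pair with a gene, and, of the rest, the 2 highest and 2 lowest in M18 against C12; other contigs were named where a count of 5 or fewer called for it. The study calls the libraries of a group biological replicates. Whether the 5 stem from different batches of seed is not in the labels, and p-values reflect how much these libraries varied. Fold changes carry no correction for contig length. The supplementary tables of fold changes and p-values were not used. No sequences of the contigs were analysed here.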

Additional observations from a re-analysis of the deposited data

Results flagged for a closer look

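Of 60 groups of libraries examined for the summed level and the 9 contigs described, 1 held a library far from the rest, where about 1 in 20 would by chance. BOR2 stood at 19.7 CPM in M12-4, with the other 4 M12 libraries between 36.8 and 39.7 CPM. The value lies just below the lowest M18 library of this contig, and the other M12 libraries lie above all 4 M18 libraries.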

How the results depend on the processing

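The number of contigs that met the rule ran from 41 to 138 when single libraries were left out, lowest without C12-1 and over 1.5 times higher without C12-4 (132), C12-5 (126) or M12-1 (138), and it was 35 with TMM-scaled CPM. With 1 C12 and 1 M12 library left out together, an alternative chosen after seeing the data, it ran from 40 to 190. The share at or above C12 in M18 was 66.7% for the 69 members. It ran from 48.8% to 85.0% over contigs re-chosen without 1 C12 library, with M18 set against the library left out. For the 69 members it ran from 59.4% to 68.1% with single M18 libraries left out, and was 58.0% with M18-5 included. For M18 against C12 the members called higher ran from 4 to 10 and those called lower from 1 to 2 with single libraries left out. Over all contigs tested these calls ran from 448 to 1971 and from 115 to 285. Without the fold threshold the members numbered 24 and 7, beside 2946 and 3387 over all contigs tested. For M18 against M12 the members called higher were 37 without the fold threshold, 12 with M18-5 and 14 to 20 with single libraries left out. Over all contigs tested these were 1789, 382 and 304 to 466. For M6 against DS 10 members were lower without the fold threshold, beside 8767 of the 22155 contigs tested. For M18 against M6 the 69 calls were the same in 18 alternatives. Of 199 counts and shares recomputed, 169 stayed within the spread or within 1.5 times. These include the 69 calls for M18 against M6, which follow in part from the choice. The number of contigs that met the rule moved further in 18 of 43 alternatives, and the share reaching C12 in 5 of 12. Of 648 fold changes of named contigs, 7 changed sign, all for M6 against DS and none with an adjusted p below 0.05: BOR2 (0.013), DMC1 (0.37), TC_66275 (0.39) and TC_46053 (0.31) without scaling factors, DMC1 (0.00019) and TC_66275 (0.010) without a filter, and TC_66275 (0.079) without DS-3 (from -0.271 to 0.079 with single libraries left out). The cause was not tested.

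With the replicate number as a block 5 members were called higher and 1 lower for M18 against C12, and 69 higher for M18 against M6. For M6 against DS 37 were higher and 5 lower, and for M18 against M12 14 were higher. The block gave, over all contigs in that order, 363 higher and 90 lower, 3492 higher, 5935 higher and 5361 lower, and 323 higher. Same-numbered libraries correlated from -0.45 to -0.16 for M18 with C12, from -0.42 to 0.33 for M18 with M12, from 0.03 to 0.35 for M18 with M6 and from -0.005 to 0.75 for M6 with DS, so the numbers were not taken to pair the samples. Levels under 1 CPM rest on few counts, and changes under 2-fold were left uncalled by the fold threshold.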
